A study of Mus musculus with 12 samples.

Results

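The genes described are the tumour suppressor Trp53, its inhibitors Mdm2 and Mdm4, and 7 direct p53 targets: Ccng1, Trp53inp1, Sesn2, Phlda3, Bbc3, Zmat3 and Eda2r. These 10 genes were taken by symbol from a count table of 21885 mouse genes, and all 10 had a row. Full-length SMART-Seq RNA-seq was made from sorted mouse cells in 12 libraries, 4 per group. The Pax5 KO group held common lymphoid progenitors and pre-pro-B cells (CLP/Pre-pro-B) of Pax5-/- fetal livers. The Pax5 WT group held the later pro-B and pre-BI cells of Pax5+/+ fetal livers, so that genotype and sorted stage cannot be told apart between these groups. The P80R B-ALL group held GFP+ cells expressing PAX5 P80R, a point mutant of the B-lineage transcription factor PAX5. They were sorted from B-cell acute lymphoblastic leukaemias of 4 primary recipients, numbered 1300, 1301, 1302 and 1308. The study set the leukaemias against both fetal liver populations. The strain and age of the animals, the vector that carries GFP and PAX5 P80R, and the Pax5 genotype of the leukaemia cells were not stated in the labels used. Nothing says whether the fetal liver replicates came from separate litters or livers, so p values measure the spread between these libraries, which may be technical.

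p53, the product of Trp53, is a transcription factor that is stabilised after DNA damage and other stress and then switches on genes for cell-cycle arrest, repair and apoptosis. It is held in check by Mdm2, a ubiquitin ligase that marks it for degradation, and by Mdm4, a related protein that blocks its activation domain. Mdm2 is itself a p53 target, which makes a negative feedback loop. Much of p53 control acts on the protein, which RNA-seq does not measure. In early B cells p53 is known as a guard against damage from V(D)J recombination, and the loss of its function is frequent in lymphoid tumours.

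p53 binds a pair of like decamers, and promoters of members that hold such a match are shown first. Genes are called direct p53 targets in part for such sites, so a match is no separate finding. RefSeq promoter entries (250 bases before to 50 after a gene's start, GRCm38.p6 build) existed for 8 of the 10 members. They were searched on both strands for the consensus p53 full site by name, taken as 2 decamers of 10 letters with no spacer. The core C and G of each decamer had to be intact and at least 17 of 20 letters had to match. Of all 32851 promoters, 1.38% held a match, and per gene the share was 1.63%. Among the members, Ccng1, Bbc3 and Trp53 held one, and 8 of 57 genes of the wider p53 pathway lists did. The windows of 80 bases are printed 5′ to 3′ on the gene's strand with the match in capitals, for these 3 members and for Cdkn1a, the cell-cycle inhibitor p21 and the best known p53 target:
Ccng1: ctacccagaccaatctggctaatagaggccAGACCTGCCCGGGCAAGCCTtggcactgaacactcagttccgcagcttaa
Bbc3: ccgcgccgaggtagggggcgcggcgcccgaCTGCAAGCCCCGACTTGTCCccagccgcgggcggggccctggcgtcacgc
Trp53: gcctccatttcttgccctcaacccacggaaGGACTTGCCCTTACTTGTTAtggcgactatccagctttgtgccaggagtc
Cdkn1a: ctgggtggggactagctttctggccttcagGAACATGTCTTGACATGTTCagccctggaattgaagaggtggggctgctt
The Ccng1 window lies at chr11:40755432-40755511 on the minus strand and matches 19 of 20 letters. The Bbc3 window (chr7:16309456-16309535, plus strand) and the Trp53 window (chr11:69580254-69580333, plus strand) match 17 of 20 letters each. The Cdkn1a window (chr17:29090898-29090977, plus strand) matches 19 of 20. All 4 matches lie upstream of a listed start. Bbc3 and Cdkn1a also have other listed starts, whose promoters held no match. A match describes these letters only, and the search says nothing about binding, here or in the promoters without one. Zmat3 and Trp53inp1 were not searched.

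The libraries held 24914250 to 43513852 gene-assigned reads, with the B-ALL libraries lowest (at most 29386256). Values below are the deposited scaled counts, whole reads multiplied by 1 factor per library. Pax5 stood at 230 to 267 in the Pax5 KO libraries, at 6194 to 7315 in Pax5 WT and at 255 to 1316 in B-ALL, so the labelled knockouts had the lowest range and overlapped with recipient 1308 of the leukaemias. Cd79a, which encodes Ig-alpha of the pre-B and B-cell receptors, was at 2343 to 2626 in Pax5 KO, at 43011 to 50939 in Pax5 WT and at 7485 to 19767 in B-ALL. Markers of other cells were present in the B-ALL libraries. The 8 granulocyte and monocyte genes summed to 4286 to 179054 there, against 8902 to 9664 in Pax5 KO and 556 to 801 in Pax5 WT, where 4 of them were at 0. The 8 erythroid genes summed to 32543 to 1066410 in B-ALL and to at most 227 in either fetal liver group. The 8 macrophage genes summed to 5017 to 33988 in B-ALL, 2021 to 2300 in Pax5 KO and 32.0 to 82.2 in Pax5 WT. Recipients 1300 and 1308 had the highest granulocyte and erythroid sums. Recipient 1308 also had a sum of 245096 over 6 plasmacytoid dendritic cell genes, against 13870 to 19749 in the other 3. The 6 T-lineage genes summed to 5602 to 14147 in B-ALL and to 2391 to 2454 in Pax5 KO. In Pax5 WT they summed to 363 to 493, and 4 were at 0. These sums were mostly Lck, at 5002 to 13799 in B-ALL, 2327 to 2404 in Pax5 KO and 363 to 492 in Pax5 WT. Recipient 1301 had the highest sum through Lck. Apart from Lck, no gene of this list exceeded 1456 in B-ALL or 55.6 in Pax5 KO. B-ALL results for the members are therefore also given without recipients 1300 and 1308. Such fits hold only recipients 1301 and 1302 as leukaemia libraries, a choice made from these marker sums. Markers of other cells remain in them. Recipients 1301 and 1302 had erythroid sums of 38834 and 32543. Their macrophage sums of 7062 and 6264 were above the 5017 of recipient 1300. The part of other cells in the results below was otherwise not tested.

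Trp53 was lower in the leukaemias than in either fetal liver population, and lower in Pax5 KO compared with Pax5 WT. The scaled counts of Trp53 were 10908, 11271, 10892 and 11244 in the Pax5 KO libraries and 12879, 13195, 13055 and 14328 in Pax5 WT. In B-ALL they were 6824, 7008, 9539 and 7362 for recipients 1300, 1301, 1302 and 1308. The 3 groups do not overlap, and recipient 1302 is the B-ALL library nearest to the fetal liver cells. How many of all tested genes separate the groups in this way was not counted, here or for the genes below. Per kilobase of exon, Trp53 had the highest level of the 10 members in Pax5 WT and Pax5 KO, at 3304 and 2739, and in B-ALL it stood at 1899, below Ccng1 at 2176. On the log2(value + 1) scale Trp53 fell by 0.81 from Pax5 WT to B-ALL (SE 0.139, adjusted p = 0.0017). It fell by 0.54 from Pax5 KO to B-ALL (SE 0.132, adjusted p = 0.012), and Pax5 KO lay 0.27 below Pax5 WT (SE 0.0518, adjusted p = 0.00066). Without recipients 1300 and 1308 the B-ALL differences of Trp53 were -0.71 and -0.44, both still past the threshold of 0.05 (adjusted p = 0.00773 and 0.0329). Over all alternatives these adjusted p values ran up to 0.00827 and 0.0419. In such bulk libraries, fewer cells of a type and less RNA per cell cannot be told apart.

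**Figure D1:**
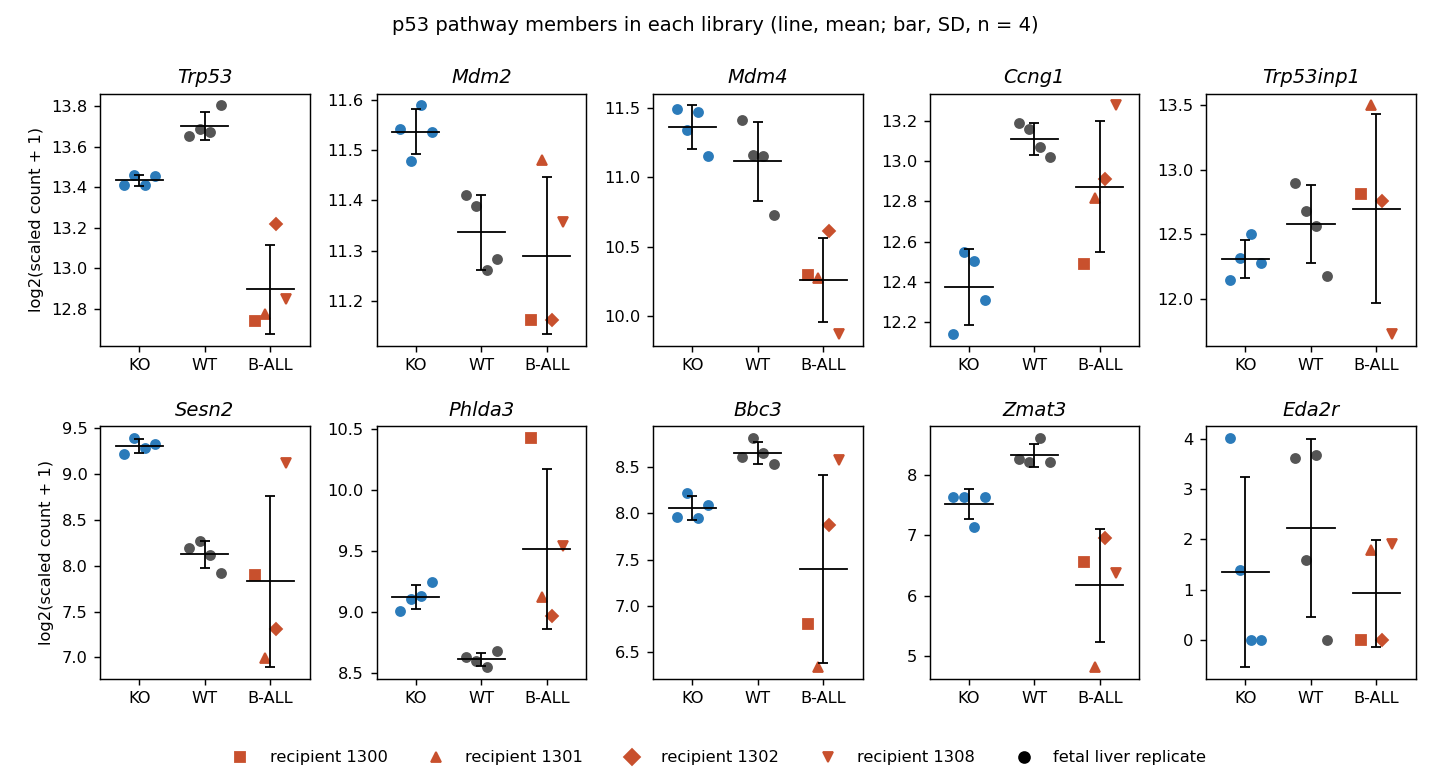
Scaled counts of the 10 members in each of the 12 libraries, as log2(scaled count + 1), with the group mean (line) and SD (bar, n = 4 per group). The y axes differ between panels and do not start at 0. Trp53 separates the 3 groups without overlap, Mdm4 is lowest in B-ALL, and of the 9 tested members Sesn2, Bbc3 and Zmat3 have the widest spread in B-ALL.

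The 2 inhibitors of p53 parted in the leukaemias: Mdm4 was lower than in either fetal liver group, while no difference of Mdm2 passed the test. Mdm2 stood at 2979.9, 2853, 3079.9 and 2969 in Pax5 KO and at 2722, 2680.2, 2456 and 2493 in Pax5 WT. In B-ALL Mdm2 was at 2290.3, 2854, 2291 and 2621. Every Pax5 KO library was above every Pax5 WT library. B-ALL values overlapped with Pax5 WT, and recipient 1301 was level with the lowest Pax5 KO library. Mdm2 was 0.20 higher in Pax5 KO compared with Pax5 WT (SE 0.0597, adjusted p = 0.0112). Its difference from Pax5 WT to B-ALL was -0.05 (95% confidence interval -0.34 to 0.24, adjusted p = 0.801) and from Pax5 KO to B-ALL -0.25 (-0.51 to 0.02, adjusted p = 0.13). The latter passed the threshold without recipient 1301 (-0.31, adjusted p = 0.0487) and with scaling by library size (-0.39, adjusted p = 0.0208), over a range of 0.0208 to 0.393 in all alternatives. With recipients 1300 and 1308 left out, the B-ALL differences of Mdm2 were -0.02 and -0.22 (adjusted p = 0.932 and 0.162).

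Mdm4 was at 2882, 2592, 2843 and 2273 in Pax5 KO, and at 2729, 2294, 2281 and 1698 in Pax5 WT. Its B-ALL values were 1254, 1237, 1562 and 933, all below the lowest fetal liver library. Mdm4 fell by 0.86 from Pax5 WT (SE 0.201, adjusted p = 0.00846) and by 1.10 from Pax5 KO (SE 0.173, adjusted p = 0.00195), and passed the threshold under all 19 alternatives of each comparison. In the absence of recipients 1300 and 1308 the values were -0.67 and -0.92 (adjusted p = 0.0353, the highest of its range, and 0.00313). Pax5 KO and Pax5 WT overlapped for Mdm4 (0.25, 95% confidence interval -0.03 to 0.53, adjusted p = 0.107). The gene has 14.8 kb of exons, in the longest quartile of the tested genes. That quartile had a median difference of -0.22 from Pax5 WT to B-ALL and -0.43 from Pax5 KO to B-ALL, against 0.33 and 0.34 in the shortest quartile. Pax5 WT library 4, the lowest for Mdm4 in its group, had medians of -0.21 and 0.18 in the longest and shortest quartiles against the other 3 libraries. The part of exon length in the Mdm4 result was not tested.

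Among targets tied to arrest and damage responses, Ccng1 was lower in Pax5 KO and Sesn2 and Phlda3 were higher there, each relative to Pax5 WT. Ccng1 encodes cyclin G1, which takes part in the feedback to Mdm2. Its counts were 4509, 5986, 5797 and 5070.2 in Pax5 KO, 9356, 9159, 8584 and 8295 in Pax5 WT, and 5736, 7211, 7690.2 and 9936 in B-ALL. The fetal liver groups are far apart and the B-ALL libraries lie across the gap, with recipient 1308 above every other library. The difference of Ccng1 between Pax5 KO and Pax5 WT was -0.74 (SE 0.0865, adjusted p = 1.27e-05). From Pax5 WT to B-ALL it was -0.24 (95% confidence interval -0.61 to 0.14, adjusted p = 0.287), and -0.25 without recipients 1300 and 1308 (adjusted p = 0.0945). From Pax5 KO to B-ALL the difference was 0.50 (0.09 to 0.91, adjusted p = 0.055). The last value was past the threshold under 6 of 19 alternatives (adjusted p from 0.00686 to 0.149), among them the fit without recipients 1300 and 1308 (0.49, adjusted p = 0.0254).

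Sesn2 encodes sestrin 2, a stress-induced brake on mTORC1 signalling that is also a target of ATF4. It was at 593, 671, 621 and 639 in Pax5 KO and at 292, 306, 277 and 241 in Pax5 WT. In B-ALL it was at 237, 127, 158 and 554, so that recipient 1308 stood near the Pax5 KO libraries and the other 3 below every Pax5 WT library. Sesn2 was 1.18 higher in Pax5 KO compared with Pax5 WT (SE 0.104, adjusted p = 9.23e-07), the largest difference of a member between these groups. The log2 difference between B-ALL and Pax5 KO was -1.47 (SE 0.412, adjusted p = 0.0211). That call was lost when any 1 Pax5 KO library was left out (adjusted p from 0.0507 to 0.0586) and with edgeR's quasi-likelihood test (-1.18, adjusted p = 0.0583). The fit without recipients 1300 and 1308 gave -2.15 (adjusted p = 0.000119). Against Pax5 WT the B-ALL difference was -0.29 (95% confidence interval -1.24 to 0.65, adjusted p = 0.608). Without recipients 1300 and 1308 it was -0.97 (adjusted p = 0.00889), the lowest of a range up to 0.986 over the alternatives. The 10 genes of the integrated stress response, which acts through ATF4, summed to 28583 to 29437 in Pax5 KO, 39018 to 44536 among Pax5 WT libraries and 23834 to 35992 in B-ALL. Its genes did not go one way in the fetal liver pair: Asns was at 508 to 628 in Pax5 KO and 3702 to 4833 in Pax5 WT, while Ppp1r15a was at 1870.4 to 2183 and 891 to 971. The 10 immediate-early and heat-shock genes, which can also be induced while cells are sorted, summed to 64899 to 65987 in Pax5 KO, 8199 to 8868 among Pax5 WT libraries and 4518 to 13054 in B-ALL. Their part in the Sesn2 result was not tested.

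Phlda3, whose product competes with AKT for membrane lipids, was higher in Pax5 KO and in B-ALL than in Pax5 WT. Its counts were 515, 549.8, 559.8 and 608 in Pax5 KO and 395, 387, 374 and 409 in Pax5 WT. The B-ALL libraries held 1378, 559, 501 and 746, each above every Pax5 WT library, with recipient 1300 highest. The differences were 0.51 between Pax5 KO and Pax5 WT (SE 0.0908, adjusted p = 0.000369) and 0.90 between B-ALL and Pax5 WT (SE 0.299, adjusted p = 0.0366). The B-ALL difference was 0.44 without recipients 1300 and 1308 (adjusted p = 0.0474), and it missed the threshold in 6 of 19 alternatives, with adjusted p up to 0.0876. Phlda3 has 1.56 kb of exons and so lies in the shortest quartile, whose median difference of 0.33 from Pax5 WT to B-ALL is given with Mdm4. The part of exon length was not tested. Between B-ALL and Pax5 KO the groups overlapped (0.39, 95% confidence interval -0.28 to 1.07, adjusted p = 0.322), and the value was -0.07 without those recipients (adjusted p = 0.661).

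Of the 2 members tied to cell death, Bbc3 was lower in Pax5 KO and in B-ALL than in Pax5 WT, and no difference of Trp53inp1 passed the limma test. Bbc3 encodes PUMA, a BH3-only protein that triggers mitochondrial apoptosis. It was at 248, 297, 245 and 272 in Pax5 KO and at 389, 448, 399 and 368 in Pax5 WT. B-ALL values of 110.4, 79.99, 233 and 381 put recipient 1308 within the Pax5 WT range and the other 3 below every fetal liver library. Bbc3 was lower in Pax5 KO by a log2 difference of -0.59 (SE 0.112, adjusted p = 0.000588). The difference between B-ALL and Pax5 WT was -1.25 (SE 0.449, adjusted p = 0.0497), and it missed the threshold in 11 of 19 alternatives, with adjusted p from 0.00648 to 0.117. Without recipients 1300 and 1308 it was -1.54 (adjusted p = 0.019). From Pax5 KO to B-ALL it was -0.66 (95% confidence interval -1.70 to 0.39, adjusted p = 0.286), and -1.05 without recipient 1308 (adjusted p = 0.0453, the lowest over the alternatives, the highest being 0.603). It was -0.95 without both 1300 and 1308 (adjusted p = 0.0865).

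Trp53inp1, a stress-induced nuclear protein that also acts in autophagy, was at 4523, 5109, 5787 and 4951 in Pax5 KO. It was at 7636, 6574, 6049.6 and 4617 in Pax5 WT and at 7173, 11589, 6906 and 3385 in B-ALL. The groups overlap, and recipients 1301 and 1308 hold the highest and the lowest of the 12 values. The differences were -0.27 between Pax5 KO and Pax5 WT (adjusted p = 0.0862), 0.12 between B-ALL and Pax5 WT (95% confidence interval -0.62 to 0.86, adjusted p = 0.802) and 0.39 between B-ALL and Pax5 KO (-0.33 to 1.11, adjusted p = 0.359). The first passed the threshold under 3 of 19 alternatives: edgeR, DESeq2 and the fit without Pax5 WT library 4. Without that library it was -0.41 (adjusted p = 0.00123, over a range up to 0.504). In the fit without recipients 1300 and 1308 the last was 0.82 (adjusted p = 0.0185, over a range up to 0.743) and the difference from Pax5 WT 0.55 (adjusted p = 0.131).

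Zmat3, a p53-induced RNA-binding protein that regulates splicing, was highest in Pax5 WT and lowest in B-ALL. The counts were 199, 198, 141 and 199 in Pax5 KO, 308, 298, 392 and 297 in Pax5 WT, and 93.3, 27.1, 123 and 81.6 in B-ALL. The 3 groups do not overlap, as for Trp53, and the B-ALL values rest on 22 to 99 reads per library. Zmat3 fell by 2.16 from Pax5 WT to B-ALL (SE 0.451, adjusted p = 0.00468), the largest difference of a member in any comparison, and passed the threshold in all 19 alternatives. It was lower in Pax5 KO compared with Pax5 WT by a log2 difference of -0.82 (SE 0.153, adjusted p = 0.000558). The difference of -1.34 between B-ALL and Pax5 KO lay at the threshold (SE 0.473, adjusted p = 0.04996) and missed it in 11 of 19 alternatives (adjusted p from 0.0124 to 0.12). Leaving out recipients 1300 and 1308 gave -2.45 against Pax5 WT (adjusted p = 0.0109) and -1.63 against Pax5 KO (adjusted p = 0.0458). Zmat3 has 11.4 kb of exons and so shares the longest quartile with Mdm4. The part of exon length was not tested here either.

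Eda2r, a receptor of the TNF receptor family that p53 induces, did not pass the filter on low values (at least 10 in at least 4 of the 12 libraries) and was not tested. It stood at 15.2, 1.64, 0 and 0 in Pax5 KO, at 11.3, 2.00, 11.9 and 0 in Pax5 WT and at 0, 2.46, 0 and 2.77 in B-ALL. No library had more than 20 reads of Eda2r, and 3 libraries had a value above 10.

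Counted over the members, 7 of the 9 tested passed the threshold between Pax5 KO and Pax5 WT, 3 higher (Mdm2, Sesn2 and Phlda3) and 4 lower (Trp53, Ccng1, Bbc3 and Zmat3). Of all 12200 genes tested, 35.7% were called higher and 29.1% lower in that comparison, so the members' share is near the background. Between B-ALL and Pax5 WT, 1 member was called higher (Phlda3) and 4 lower (Trp53, Mdm4, Bbc3 and Zmat3), against 21.0% and 18.9% of all genes. Between B-ALL and Pax5 KO, none was called higher by limma and 4 were called lower (Trp53, Mdm4, Sesn2 and Zmat3), against 17.6% and 20.8% of all genes. Of the members, 1 was higher there at an unadjusted p under 0.05, with edgeR and with DESeq2 (Ccng1), and 2 were called higher without recipients 1300 and 1308 (Ccng1 and Trp53inp1). In the fit without these recipients 5971 of all 12200 genes were called, 43.24% of them higher. The median log2 difference of the 9 tested members was -0.27 between Pax5 KO and Pax5 WT, where that of all genes was 0.06. It was -0.29 against -0.0036 in B-ALL versus Pax5 WT and -0.54 against -0.11 in B-ALL versus Pax5 KO. Without recipients 1300 and 1308 the members' medians in these B-ALL comparisons were -0.67 and -0.44. Leaving out any 1 Pax5 WT library left 3 members called between B-ALL and Pax5 WT, and leaving out any 1 Pax5 KO library left 2 between B-ALL and Pax5 KO. Of all genes, 3477 to 4109 and 3118 to 3284 were then called, against 4873 and 4683 with every library. In 1 fit of all 12 libraries, 2 members were called between Pax5 KO and Pax5 WT (Ccng1 and Sesn2). That fit called 4193 of all genes, against 7901 in the fit of these 2 groups alone. Each pair of comparisons shares a group of libraries, so their values are set side by side and not as separate evidence.

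**Figure D2:**
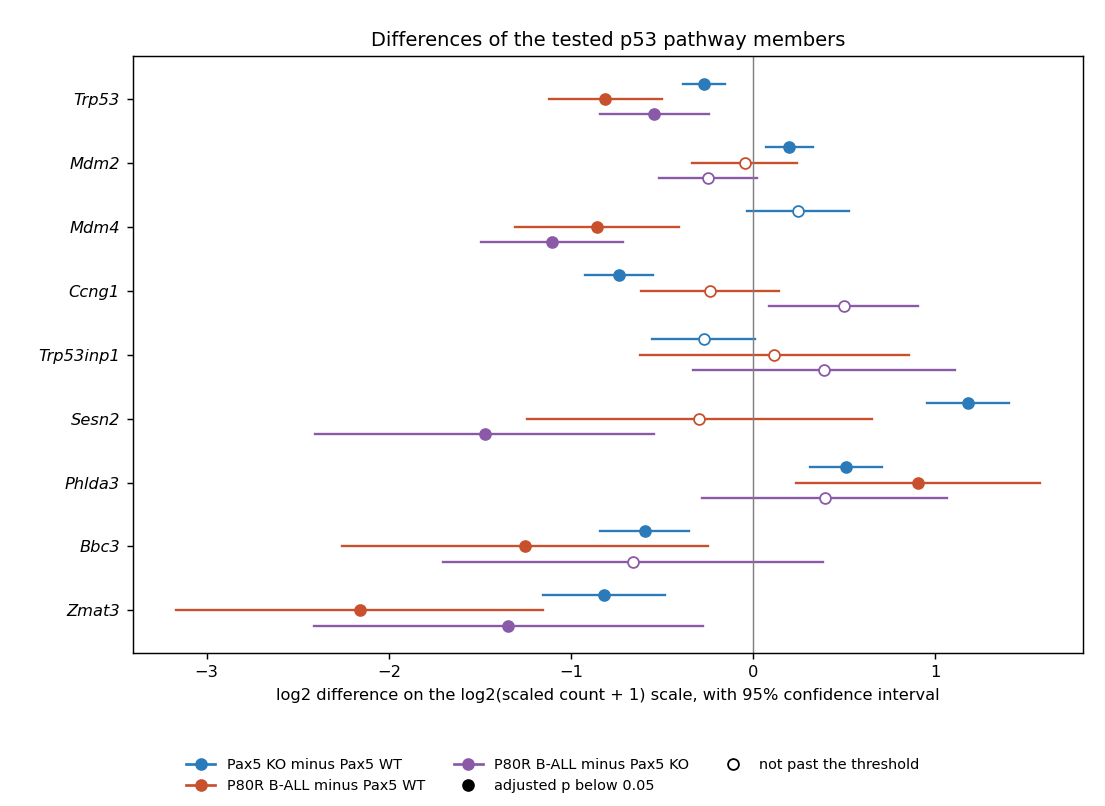
Log2 differences of the 9 tested members in the 3 comparisons, with 95% confidence intervals from the limma fit of the 8 libraries compared. Filled points had an adjusted p below 0.05, adjusted over 12200 genes. Trp53 and Mdm4 lie below 0 with filled points in both B-ALL comparisons, and Sesn2 points in opposite directions in Pax5 KO minus Pax5 WT (1.18) and B-ALL minus Pax5 KO (-1.47).

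The wider pathway was described with 68 further genes in 5 lists, of which 66 had a row and 60 were tested. Between Pax5 KO and Pax5 WT 23 were higher and 22 lower, between B-ALL and Pax5 WT 3 and 17, and between B-ALL and Pax5 KO 5 and 14. Of all genes, 35.7% and 29.1%, 21.0% and 18.9%, and 17.6% and 20.8% were called higher and lower in these comparisons. The medians of the lists' genes were 0.06, -0.26 and -0.25, against 0.06, -0.0036 and -0.11 over all genes. Several lists are small, and their counts below are to be read against these shares. Without recipients 1300 and 1308 the B-ALL comparisons had 7 higher and 20 lower, and 10 higher and 19 lower. All genes called also rose in these fits, from 4873 to 5299 and from 4683 to 5971 of 12200. Leaving out single libraries moved the first B-ALL count of 20 to as few as 11 (12 without Pax5 WT library 1 or 2, 11 without library 3) and the second of 19 to as few as 12 (without Pax5 KO library 1 or 4). All genes called also fell when a single library was left out, to as few as 3477 and 3118.

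The upstream kinases and regulators had 21 tested genes, with 7 higher and 8 lower in Pax5 KO compared with Pax5 WT. In B-ALL none was higher by limma (1 at an unadjusted p under 0.05, 0 by edgeR, 1 by DESeq2 and 1 without recipients 1300 and 1308) and 4 were lower than in Pax5 WT, while 3 were higher and 7 lower than in Pax5 KO. Cdkn2a, whose locus encodes the Mdm2 inhibitor p19Arf and the CDK inhibitor p16Ink4a, was at 1.52, 0, 0 and 0 in Pax5 KO, at 55.8, 39.0, 67.2 and 71.4 in Pax5 WT, and at 44.7, 27.1, 62.0 and 33.2 in B-ALL. Pax5 KO therefore stood apart from both other groups (adjusted p = 5.19e-07 against Pax5 WT and 0.000714 against B-ALL), while B-ALL and Pax5 WT overlapped (adjusted p = 0.387). Gene-level counts do not separate the transcripts of the 2 proteins. Usp7, the deubiquitinase that acts on both Mdm2 and p53, was at 2881, 3474, 5484 and 3468 in B-ALL and at no less than 6903 in any fetal liver library. It fell by 1.22 from Pax5 WT (SE 0.208, adjusted p = 0.00167) and by 1.05 from Pax5 KO (SE 0.195, adjusted p = 0.00392). Ppp1r13l, which encodes the p53 inhibitor iASPP, was at 18.5 to 42.2 in B-ALL against 76.5 to 148 in the fetal liver libraries. Its log2 differences were -1.81 from Pax5 WT and -2.02 from Pax5 KO (adjusted p = 0.00776 and 0.00449). Its relative Ppp1r13b (ASPP1), an activator of p53, was 0.94 higher in Pax5 KO compared with Pax5 WT (adjusted p = 1.72e-05), and the checkpoint kinase gene Chek2 0.43 higher (adjusted p = 8.81e-05). Trim24, a ligase for p53, was lower in B-ALL than in Pax5 WT (-0.55, adjusted p = 0.0267), a call lost in 4 of 19 alternatives (adjusted p up to 0.0834), among them leaving out Pax5 WT library 1, 2 or 3. Usp7 (7.77 kb of exons) and Trim24 (8.52 kb) lie in the longest quartile, whose medians are given with Mdm4. The part of exon length in their values was not tested.

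Among 10 tested arrest and checkpoint targets, 3 were higher and 5 lower in Pax5 KO compared with Pax5 WT. In B-ALL 4 were lower than in Pax5 WT and 2 lower than in Pax5 KO. None was higher by limma in B-ALL. Against Pax5 WT that count was also 0 at an unadjusted p under 0.05, by edgeR and by DESeq2, and against Pax5 KO it was 1 in each. With recipients 1300 and 1308 left out, 1 was higher (Zfp365, named after its values were seen, 2.05, adjusted p = 0.00336) and 5 lower than in Pax5 WT, and 2 were higher and 5 lower than in Pax5 KO. Cdkn1a was at 4342, 3751, 3479 and 3966 in Pax5 KO, at 1042, 1167, 1159 and 1272 in Pax5 WT, and at 744, 2032, 438 and 904 in B-ALL. The Pax5 KO libraries lie above all others, and recipient 1301 is the highest B-ALL library. Cdkn1a was 1.74 higher in Pax5 KO compared with Pax5 WT (SE 0.0834, adjusted p = 3.93e-09) and fell by 2.14 from Pax5 KO to B-ALL (SE 0.391, adjusted p = 0.00379). Between B-ALL and Pax5 WT its difference was -0.40 (adjusted p = 0.441), and -0.80 without recipient 1301 (adjusted p = 0.0338, the lowest of a range up to 0.894). Plk2, a stress-induced polo-like kinase gene, was at 1034 to 1214 in Pax5 KO and at 58.1 to 373 in B-ALL (-2.92, SE 0.47, adjusted p = 0.00216). The immediate-early sums given with Sesn2 were also highest in Pax5 KO. Their part in the Cdkn1a and Plk2 values was not tested. Gtse1, which acts on p53 in G2, was lower in Pax5 KO (-1.16, adjusted p = 2.71e-08) and in B-ALL (-1.33, adjusted p = 0.0241, and -0.54 without recipients 1300 and 1308, adjusted p = 0.0218). The B-ALL call of Gtse1 was lost in 5 of 19 alternatives (adjusted p up to 0.0626): edgeR and leaving out recipient 1308 or Pax5 WT library 1, 2 or 3. Psrc1 was lower in both as well (-2.64, adjusted p = 1.52e-08, and -4.29, adjusted p = 0.00732). Its B-ALL values ran from 4.96 to 266, on 4 to 192 reads per library (SD of log2 values 2.31). Ckap2, a spindle protein gene, was lower in B-ALL than in Pax5 WT (-0.87, adjusted p = 0.0021).

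**Figure D3:**
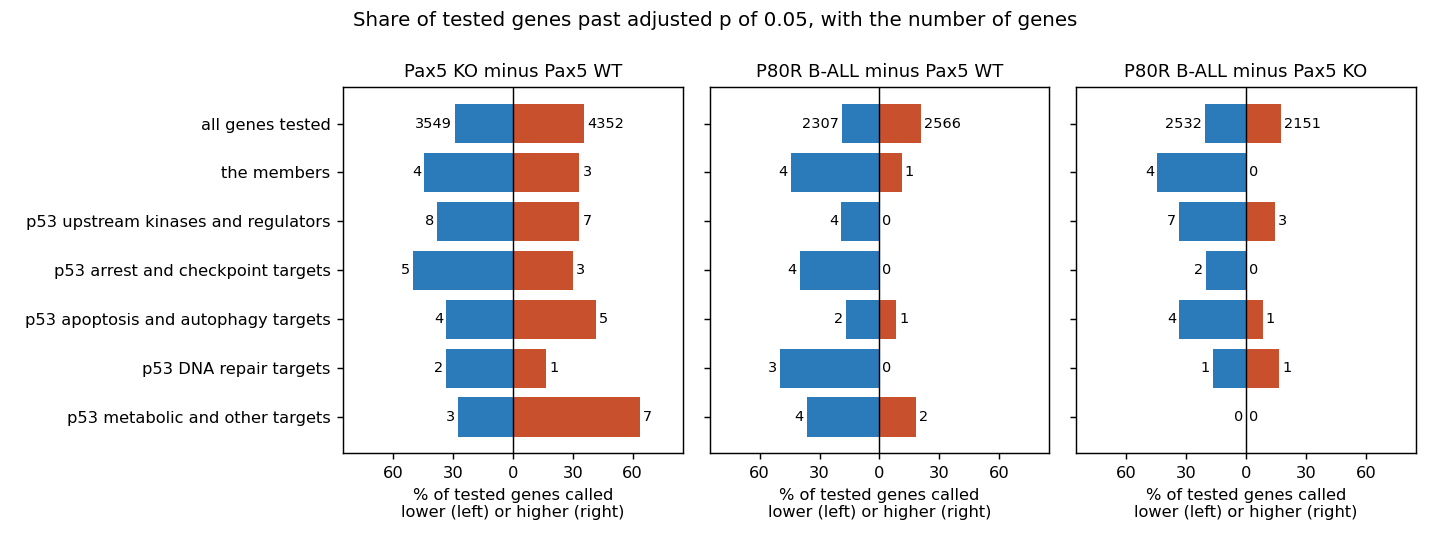
Percent of tested genes called lower (left, blue) or higher (right, red) in each comparison, for all 12200 genes, the 9 tested members and the 5 pathway lists, with the number of genes beside each bar. In Pax5 KO minus Pax5 WT both directions are well filled in all genes (4352 higher, 3549 lower), and in B-ALL minus Pax5 WT the arrest targets have 4 lower and 0 higher.

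Of 12 tested apoptosis and autophagy targets, 5 were higher and 4 lower in Pax5 KO relative to Pax5 WT, near the 35.7% and 29.1% of all genes. In B-ALL 1 was higher and 2 lower than in Pax5 WT, and 1 higher and 4 lower than in Pax5 KO. Bax, the effector that permeabilises mitochondria, was at 3144, 2733, 2650.5 and 2858 in Pax5 KO, at 4984, 5116, 5446 and 6109 in Pax5 WT, and at 3556, 3337, 3436 and 4286 in B-ALL. The 3 groups do not overlap. Bax lay below Pax5 WT by -0.93 in Pax5 KO (SE 0.0776, adjusted p = 6.05e-07) and by -0.57 in B-ALL (SE 0.135, adjusted p = 0.00865). Between B-ALL and Pax5 KO it missed the threshold (0.36, adjusted p = 0.051). The latter difference passed in 8 of 19 alternatives, among them edgeR and DESeq2 (adjusted p from 0.0033 to 0.207). Pmaip1, which encodes the BH3-only protein NOXA, ran against Bax and Bbc3 in Pax5 KO. It was at 3214, 3296, 2838 and 2709.5 there and at 1172, 1072, 969 and 992 in Pax5 WT (1.52, SE 0.0864, adjusted p = 1.79e-08). B-ALL values of Pmaip1 were 671, 618, 473 and 2479, the last in recipient 1308, and were lower than in Pax5 KO (-1.85, SE 0.452, adjusted p = 0.0126, and -2.47 without recipients 1300 and 1308). Pidd1, the scaffold of the caspase-2 complex, was at 224 to 465 in B-ALL and 905 to 1143 in Pax5 WT (-1.75, SE 0.237, adjusted p = 0.000503). Against Pax5 KO, Pidd1 was at -0.92 (adjusted p = 0.026), and at -0.61 without recipients 1300 and 1308 (adjusted p = 0.0939). That call was lost in 6 of 19 alternatives, among them leaving out recipient 1300 or Pax5 KO library 1, 2 or 4. Perp, a membrane protein gene, was at 41.1 to 55.6 in Pax5 KO, at 0 in all 4 Pax5 WT libraries, and at 18.4, 0, 0 and 11.1 in B-ALL. The B-ALL libraries with Perp were 1300 and 1308. Dram1, a lysosomal autophagy gene, was at 0, 2.00, 0 and 0 in Pax5 WT and at 44.7, 9.84, 18.6 and 203 in B-ALL, again highest in 1300 and 1308 (adjusted p = 0.00394, and 0.0101 without them).

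Among 6 DNA repair targets, 1 was higher and 2 lower in Pax5 KO compared with Pax5 WT, and 1 was higher and 1 lower in B-ALL than in Pax5 KO. In B-ALL 3 were lower than in Pax5 WT and none was higher by limma, nor at an unadjusted p under 0.05 (0), by edgeR (0) or by DESeq2 (0). Without recipients 1300 and 1308, 2 were higher than in Pax5 WT, Ddb2 (0.76, adjusted p = 0.0255) and Xpc (0.58, adjusted p = 0.0497), both named after their values were seen. Xpc, a sensor of nucleotide excision repair, was at 5297 to 5812 in Pax5 KO and 1606 to 1876 in Pax5 WT (1.66, SE 0.0656, adjusted p = 6.71e-10). It fell by 1.16 from Pax5 KO to B-ALL (SE 0.265, adjusted p = 0.00948), where it ranged from 1518 to 3716. Rrm2b, a p53-induced subunit of ribonucleotide reductase, was at 417 to 529 in Pax5 KO, 707 to 905 in B-ALL and 1499 to 2250.1 in Pax5 WT. All 3 pairs of groups were apart, by -1.89 in Pax5 KO minus Pax5 WT (adjusted p = 5.89e-08), -1.18 in B-ALL minus Pax5 WT (adjusted p = 0.000606) and 0.71 in B-ALL minus Pax5 KO (adjusted p = 0.00874). Polh, the translesion polymerase eta, was lower than in Pax5 WT in Pax5 KO (-1.95, adjusted p = 4.55e-09) and in B-ALL (-1.53, adjusted p = 9.28e-05). Ercc5, an excision nuclease gene, was lower in B-ALL than in Pax5 WT (-0.95, adjusted p = 0.0443) with overlapping groups, and missed the threshold in 7 of 19 alternatives (adjusted p up to 0.116), among them leaving out recipient 1300 or any 1 Pax5 WT library.

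The metabolic and other targets had 11 tested genes, 7 higher and 3 lower in Pax5 KO compared with Pax5 WT. In B-ALL 2 were higher and 4 lower than in Pax5 WT, and none was past the threshold of limma against Pax5 KO. At an unadjusted p under 0.05, 0 were higher and 2 lower there, edgeR called 0, and DESeq2 called 2 higher and 0 lower. Leaving out recipients 1300 and 1308 gave 1 higher and 2 lower. Sesn1, the paralog of Sesn2, was at 5292 to 6138 in Pax5 KO, 2563 to 2760.2 among Pax5 WT libraries and 3562 to 5885 in B-ALL. It was 1.12 higher in Pax5 KO (SE 0.0624, adjusted p = 1.43e-08) and 0.82 higher in B-ALL (SE 0.163, adjusted p = 0.00364) than in Pax5 WT. All 4 B-ALL libraries had more Sesn1 than any Pax5 WT library, while 3 of the 4 had less Sesn2. Ephx1, an epoxide hydrolase, was at 1232 to 1664 in Pax5 WT, 37.0 to 43.3 in Pax5 KO and 39.4 to 223 in B-ALL (-5.11, adjusted p = 1.57e-11, and -4.06, adjusted p = 0.000183). Abhd4 was 0.89 higher in Pax5 KO compared with Pax5 WT (adjusted p = 5.28e-06). Slc19a2, a thiamine transporter gene, was lower in B-ALL than in Pax5 WT (-1.996, adjusted p = 0.0199), and the difference was -0.86 without recipients 1300 and 1308 (adjusted p = 0.0141). The call was lost without Pax5 WT library 1 or 3 (adjusted p up to 0.0593).

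**Figure D4:**
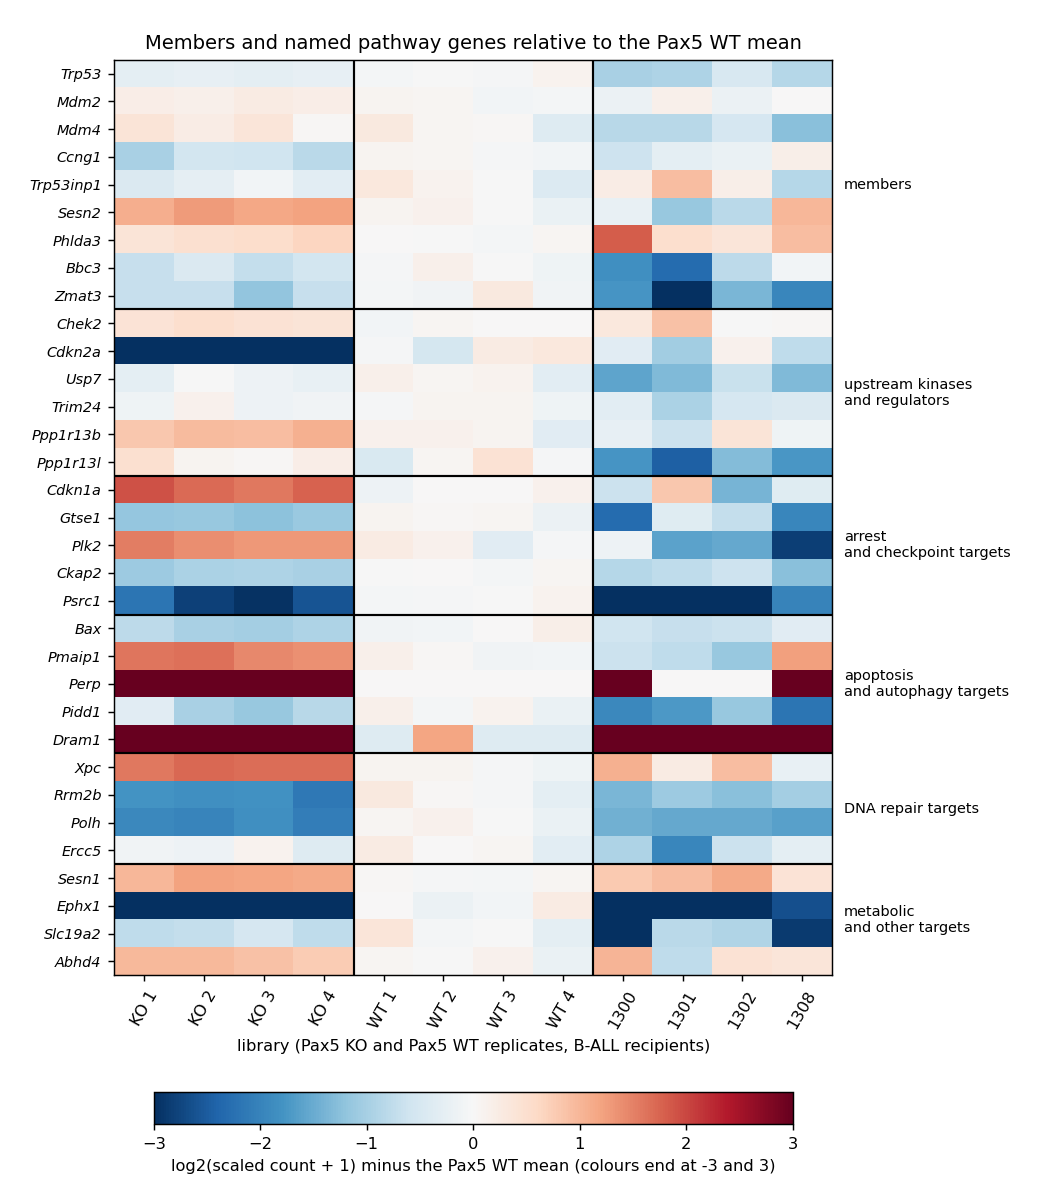
Members and the named pathway genes in each library as log2(scaled count + 1) minus the Pax5 WT mean, with colours ending at -3 and 3. In all 4 Pax5 KO columns Cdkn1a, Pmaip1 and Xpc are high and Polh and Rrm2b low, while B-ALL columns differ between recipients for Sesn2, Pmaip1 and Trp53inp1.

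The spread between B-ALL libraries exceeded that of the fetal liver libraries for all 9 tested members. The SD of log2 values in B-ALL ran from 0.156 (Mdm2) and 0.222 (Trp53) to 0.94 (Zmat3) and 1.01 (Bbc3), and its median over all tested genes was 0.467. In Pax5 KO and Pax5 WT those medians were 0.114 and 0.159. Mdm2, Trp53, Mdm4 (0.305) and Ccng1 (0.326) thus varied less between leukaemias than the median gene, and Bbc3, Zmat3, Sesn2, Trp53inp1 (0.732) and Phlda3 (0.653) more. Recipient 1308 had the highest B-ALL value of Ccng1, Sesn2, Bbc3 and Pmaip1, and the lowest of Mdm4 and Trp53inp1. It also had the highest granulocyte, macrophage, erythroid and plasmacytoid dendritic cell sums, whose part in these values was not tested.

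The genes whose pattern over the 12 libraries was most like that of Trp53 were Eef2, a translation elongation factor (Pearson r = 0.985), Ppp1r7 (0.983) and Usp44 (0.981). Those most like Mdm2 were Magt1 (0.971), Htra3 (0.958) and Gnb5 (0.948). Of the members, Zmat3 was most like Trp53 (0.903), Phlda3 was least like it (-0.803), and Mdm2 had an r of 0.165 with it. These values describe 12 points in 3 groups, so they follow mostly the order of the group means.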

How the data were processed

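RNA-seq was analysed for 12 libraries, 4 per group, grouped by their titles. Per the labels' protocols, RNA came from sorted cells (RNeasy plus micro kit) and libraries from the SMART-Seq v4 kit, which keeps no strand. The submitters' processing notes name fastp, featureCounts, STAR 2.7.8a and the mm39 build, without annotation or multimapping rules. The signal values, as deposited, are whole counts multiplied by 1 factor per library (0.722 to 1.38), since 100% of values came out whole within 0.001. Reads recovered that way gave depths and the count tests. A total of 21780 of 21885 identifiers matched a symbol in GENCODE M21, used for names, exon lengths and exon overlaps only.

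Values were tested as log2(value + 1) with limma 3.58.1 in R 4.3.3 (trend and robust, two-sided). Genes below 10 in more than 8 of the 12 libraries were left out. Each comparison was fitted to its own 8 libraries because the spread differs between groups, with Benjamini-Hochberg adjustment over 12200 genes and a threshold of 0.05. The fit assumes equal spread in both groups, so calls near the threshold in the B-ALL comparisons are less firm. The method was tested on simulated data. Libraries of 1 group differed by more than sampling noise in all 18 pairs (chi-square per degree of freedom of at least 6.29). Alternatives were edgeR 4.0.16 and DESeq2 1.42.0 on recovered reads, other scalings, pseudocounts and filters, 1 fit of all libraries, group variance weights, a replicate block and libraries left out.

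Named genes were the members, Cdkn1a, Cdkn2a, Bax, up to 3 genes per list and comparison with the smallest adjusted p, and the 3 genes most like Trp53 and Mdm2. The members and lists were chosen with earlier results of these data known. No member shares exons with another gene in GENCODE M21. Bax shares 12.18% of its exonic bases with a gene listed at 0 in every library, and Cdkn1a 7.68% with an antisense gene not analysed here. The values of 1 marker gene are not reported here.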

Additional observations from a re-analysis of the deposited data

Results flagged for a closer look

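In 7 of 98 groups of 4 libraries, over the members and the named pathway genes, the highest or lowest library stood apart from the other 3 by Dixon's criterion, which chance meets in about 1 of 20 groups. Among the members, Zmat3 was at 140.582 in Pax5 KO library 3 against 198 to 199 in the others, and at 392.494 in Pax5 WT library 3 against 297 to 308. Eda2r was at 15.2267 in Pax5 KO library 1 against 0 to 1.64. Pmaip1 was at 2478.52 in B-ALL recipient 1308 against 473 to 671. Ppp1r13b was at 442.11 in Pax5 WT library 4 against 597 to 618. Rrm2b was at 416.795 in Pax5 KO library 4 against 517 to 529. Slc19a2 was at 437.177 in Pax5 KO library 3 against 367 to 376.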

How the results depend on the processing

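Of 513 values of the members' log2 differences under the alternatives, 453 kept their direction and side of the threshold. Of the members called, Ccng1 and Sesn2 (Pax5 KO against Pax5 WT), Trp53, Mdm4 and Zmat3 (B-ALL against Pax5 WT) and Trp53 and Mdm4 (B-ALL against Pax5 KO) stayed past it in all 19. Fitting all 12 libraries together left 4193 genes, 2 members and 22 pathway genes called between Pax5 KO and Pax5 WT, where the spread of B-ALL enters. The calls of Trp53, Mdm2, Phlda3, Bbc3 and Zmat3 were lost there, with Trp53 at an adjusted p of 0.0759. With recipients 1300 and 1308 left out, 29 pathway genes and 5971 of all genes were called between B-ALL and Pax5 KO. Phlda3 reversed there to -0.07 (-0.0747). Mdm2 between B-ALL and Pax5 WT reversed to 0.0053 with DESeq2. The causes were not tested. Leaving out 1 library gave 3 to 5 members, 11 to 25 pathway genes and 3477 to 5375 genes for B-ALL against Pax5 WT. The fewest came when a Pax5 WT library was left out. For B-ALL against Pax5 KO, leaving out 1 library gave 2 to 5 members, 12 to 24 pathway genes and 3118 to 5315 genes. The value of 3118 came without Pax5 KO library 3. Trp53inp1 in B-ALL against Pax5 WT ran from -0.15 without recipient 1301 to 0.44, and was -0.0177 without Pax5 WT library 4. The median of all genes between B-ALL and Pax5 KO was -0.112, and -0.256 with library size scaling, where 35.52% of calls were higher instead of 45.93%. It was 0.062 with edgeR and 0.078 with DESeq2, with 57.88% and 57.39% higher. Between the fetal liver groups, correlations of deviations were 0.005 to 0.062 for libraries of the same replicate number. For libraries of different numbers they were -0.063 to 0.036. These values cannot show whether libraries of the same number share a litter or a batch. With the replicate block, 7987 genes, 8 members and 44 pathway genes were called, and Mdm4 passed (adjusted p = 0.0133).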

Other observations

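Mdm2 and Mdm4 act together on p53, so the ratio of their reads was computed per library, a choice made after their values were seen. Mdm4 reads per Mdm2 read were 0.967, 0.908, 0.923 and 0.766 in Pax5 KO and 1.00, 0.856, 0.929 and 0.681 in Pax5 WT. In B-ALL the ratio was 0.548, 0.433, 0.682 and 0.356 for recipients 1300, 1301, 1302 and 1308. The B-ALL libraries lie below all Pax5 KO libraries, and recipient 1302 equals Pax5 WT library 4 to within 0.001. This ratio does not depend on the scaling of a library, but Mdm4 has 14.8 kb of exons and Mdm2 5.08 kb, so it can move with exon length, which was not tested.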
